A study of Mus musculus with 11 samples.

Results

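The genes described here encode the proteins of the cytosolic ribosome. They were chosen by symbol: protein-coding genes named Rps or Rpl followed by a number, together with Rpsa, Rplp0, Rplp1 and Rplp2, without pseudogenes, the Rps6k kinases and Rps19bp1. This gave 83 genes, 33 of the small subunit and 50 of the large subunit, among the 37310 gene identifiers in the count tables. The annotation holds 85 such symbols, and Rpl24 and Rpl41 were not analysed here because no identifier in the tables matched them.

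The ribosome is built from a small (40S) subunit, which reads the messenger RNA, and a large (60S) subunit, which forms peptide bonds. Each subunit joins ribosomal RNA to its own set of proteins, most of them present in a single copy, so that the proteins are needed in matched amounts. Messages of these genes are among the most abundant in dividing cells, and most begin at a cytosine followed by a run of pyrimidines (the 5′ terminal oligopyrimidine tract, or TOP), through which the kinase mTOR controls their translation. In the small intestine, the crypt epithelium divides throughout life and crypts grow in culture as organoids, closed epithelial buds that can be split and replated.

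The study measured RNA in organoids grown from intestinal crypts of mice carrying Lgr5-EGFP-IRES-creERT2, an allele that places a fluorescent protein and an inducible Cre recombinase at Lgr5, a gene of intestinal stem cells. All 11 libraries carry that allele, early and late alike. Organoids of mouse_283 were taken at passages 2, 3 and 4 (early) and 11, 12 and 13 (late), and those of mouse_285 at passages 2 and 4 (early) and 11, 12 and 13 (late), which gives 5 early and 6 late libraries. The labels name donors of 4 and 24 months without tying an age to either animal, they call every library small intestine epithelium, and cultures were split every 7 days in Matrigel with IntestiCult medium. Libraries of one mouse share that animal, so p-values measure the spread between these libraries and not between animals.

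Gene reads ran from 15114132 to 28949911 a library, and 50.0% to 50.2% of reads fell on each gene's own strand, so genes that overlap on opposite strands cannot be told apart. Epithelial markers (Epcam, Cdh1, Krt8, Krt18, Krt19 and Vil1) summed to 6896 to 11525 CPM (counts scaled to library size). The marker sums in this paragraph use each library's plain total. CPM of single tested genes are scaled with TMM, which corrects each library's total for its composition. The 7 immune markers summed to 2.99 to 9.98 CPM early and 2.05 to 4.61 CPM late, most of it Cd68, with Ptprc at 1 read in all. The 6 fibroblast markers summed to 0.039 to 1.61 CPM early and 0.129 to 0.425 CPM late, with Dcn and Lum at 0 reads in all libraries. The part of these markers in the results was not tested. Early passages 3 and 4 of mouse_283 stand apart from the other libraries in the trend of their values with base composition, which is described below, and medians and calls that turn without them are given both ways.

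Ribosomal protein genes were strongly expressed throughout. Divided by transcript length, the mean level over the 11 libraries had a median of 1682 RPKM (reads per kilobase of transcript, scaled to library size as CPM) over the 80 genes that passed the filter on low counts, and 70 of the 80 lay at 500 RPKM or more. Rplp1, an acidic protein of the stalk of the large subunit, was highest at 5859 RPKM, followed by Rpl13 (4241), the small-subunit protein Rps12 (4037), the stalk protein Rplp0 (3944) and Rps2 (3646). The ranges of these 5 genes over the libraries overlap, so their order is not fixed by these data. At the other end lay Rps27rt, a retrogene copy of Rps27, at 19.97 RPKM, Rpl7l1, a relative of Rpl7, at 49.4, Rpl23a at 91.8, Rpl35 at 121 and Rps15a at 160. The transcript used for Rps15a is the longest among the tested genes (5179 bases), and its 649.5 to 1365 CPM were divided by that length.

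**Figure D1:**
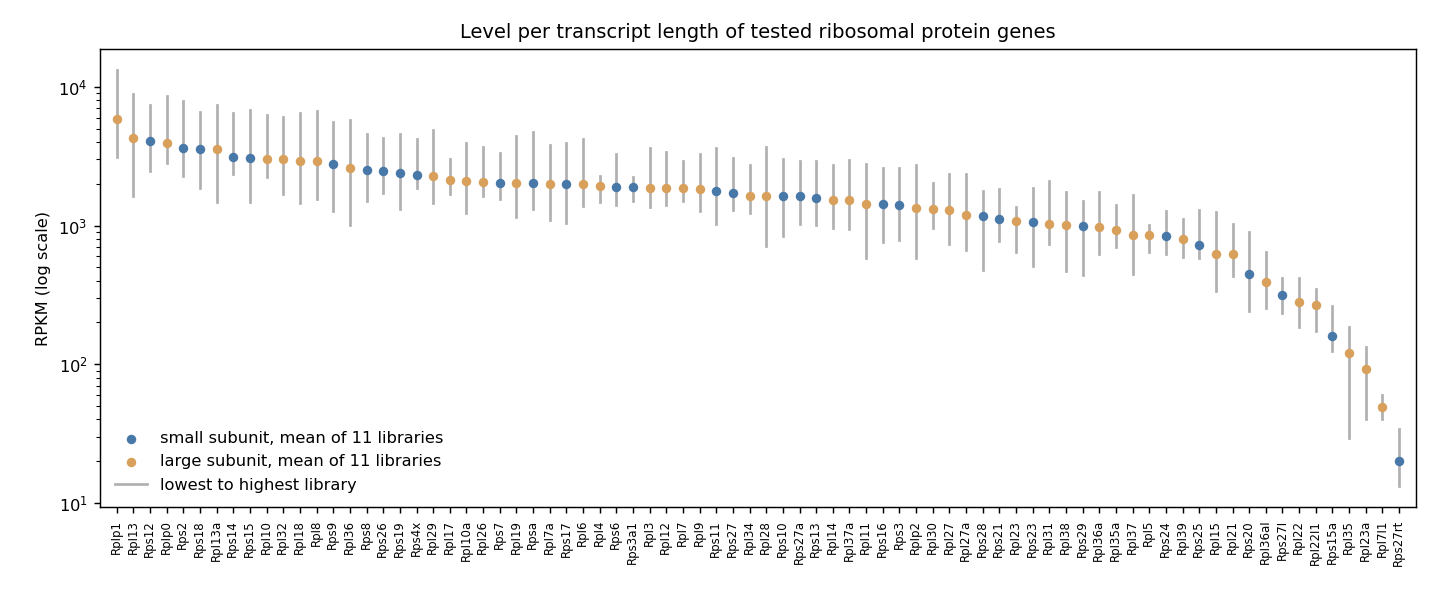
Level per transcript length of the tested ribosomal protein genes reported here, in RPKM on a log axis, ordered by mean. Points are means of 11 libraries, coloured by subunit, and grey lines run from the lowest to the highest library. Most genes sit at 500 or more, and a short tail falls to 19.97 at Rps27rt.

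3 genes did not pass the filter. Rpl10l and Rpl39l, copies known for their expression in testis, had 0 reads in every library, and Rpl3l, a form of Rpl3 known from muscle, had 10 reads in all, spread over 5 libraries with at most 3 in one. A count of 0 allows up to 0.104 to 0.198 CPM (3 reads of each library's total, counting error only). Their canonical partners were abundant: Rpl10 ran from 1799.5 to 5022 CPM, Rpl39 from 360 to 685 CPM and Rpl3 from 1836 to 4885 CPM.

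Many of these genes have near-identical copies, which bears on how their reads could be assigned. Of the 50-base stretches of each tested gene's transcript, a median of 50.7% also occurs in a transcript of another gene, with a range of 0 to 98.6%, and 41 of the 80 genes share at least 50%. Rps27 shares 98.6% of its stretches and Rpl23a shares 82.6%, whereas Rpl22 shares 5.19%. Across genes this share had a Pearson r of 0.23 and a Spearman rho of 0.35 with the log2 level, as a description over 80 genes that share the libraries. Of the pseudogenes with -ps symbols, 194 were listed, 39 of them without a read, and together they held 0.024% to 0.065% of gene reads. Copies under other symbols are not in this count. Reads that mapped to several places, 5.92% to 8.78% of a library, were counted apart from the genes. Levels of genes with many such stretches are therefore uncertain. A comparison of one gene between libraries meets the same copies on both sides, but the share of multimapping reads differed between libraries. It was 7.41%, 6.35% and 5.92% at passages 2, 3 and 4 of mouse_283. The part of shared sequence in the comparisons was not tested.

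The transcription starts of these genes are printed here because the members moved together and because the oligopyrimidine tract is read at the start. RefSeq (GRCm38.p6) gives promoter windows for 63 of the 83 genes. Each line holds 40 bases centred on the start, 5′ to 3′ on the gene's strand, and the capitals mark the longest unbroken run of C and T. Rpl35 and Rpl4 departed most from the common pattern described below, and the other lines are the paralog pairs Rps27 and Rps27l, and Rpl22 and Rpl22l1.
Rpl35: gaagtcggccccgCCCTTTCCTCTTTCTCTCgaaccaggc
Rpl4: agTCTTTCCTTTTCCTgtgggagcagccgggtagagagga
Rps27: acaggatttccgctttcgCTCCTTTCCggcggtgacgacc
Rps27l: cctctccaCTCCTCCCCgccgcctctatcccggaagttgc
Rpl22: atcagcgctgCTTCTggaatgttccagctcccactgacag
Rpl22l1: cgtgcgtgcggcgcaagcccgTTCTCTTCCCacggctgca
They lie at chr2:39005112-39005151 (minus strand), chr9:64173367-64173406 (plus), chr3:90213629-90213668 (minus), chr9:66946066-66946105 (plus), chr4:152324416-152324455 (plus) and chr3:28805488-28805527 (plus), in that order. Rps27l and Rpl22 each have a further start that is not shown.

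The longest run in these lines is 18 bases in Rpl35, 14 in Rpl4, 10 in Rpl22l1, 9 in Rps27 and Rps27l and 5 in Rpl22. A run of at least 8 C or T within these 40 bases was found at 30 of the 63 genes (47.6%) and at 18.4% of the 27025 genes with a window. The letters CTTTCC in the same 40 bases, on the gene's strand, occurred at 19.05% of the ribosomal protein genes and 2.30% of all genes. Over the whole promoter window and both strands, CCGGAAG occurred at 39.7% against 9.93%, AAGATGGC at 9.52% against 3.19%, and TATAAA at 9.52% against 9.77%. The motifs and the run length were picked after the sequences had been looked at, the pyrimidine run can contain CTTTCC, and these shares describe letters and not binding.

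Reads on the family varied most among the early libraries of mouse_283. The share of gene reads on the 83 genes was 8.17% at passage 2, 16.8% at passage 3 and 14.5% at passage 4 of mouse_283. In mouse_285 it was 10.8% at passage 2 and 11.2% at passage 4. Late libraries held 11.7%, 11.9% and 10.8% (mouse_283) and 11.0%, 12.9% and 10.7% (mouse_285). The early libraries thus include both the lowest and the highest shares of the series, and all 6 late shares lie between them. The mean was 12.3% ± 3.37 (SD, n = 5) early and 11.5% ± 0.845 (SD, n = 6) late, and leaving out mouse_283 at passages 3 and 4 gave an early mean of 10.0% ± 1.64 (SD, n = 3). In bulk RNA a larger share cannot be told apart from a change in which cells are present.

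**Figure D2:**
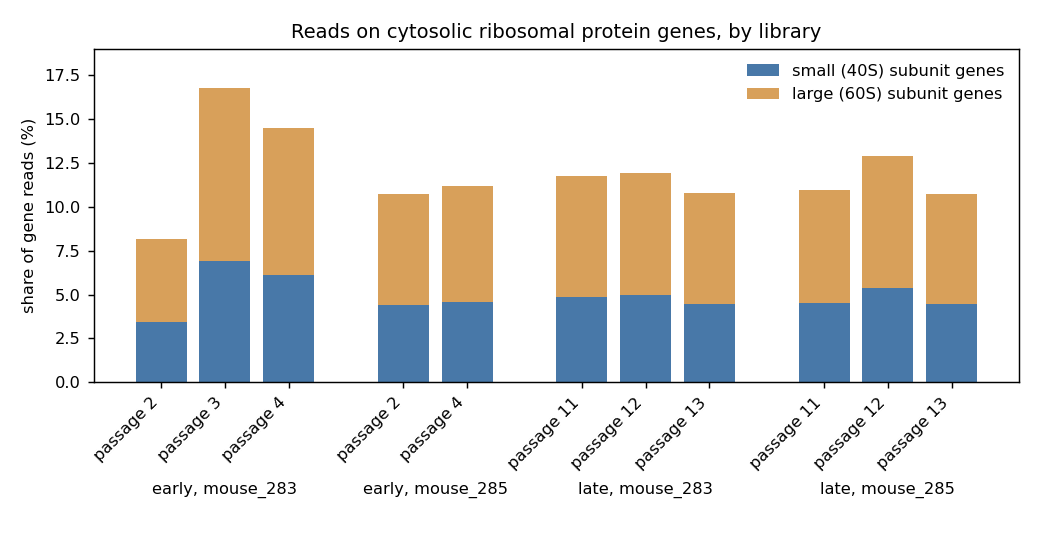
Share of gene reads, in percent, on small-subunit and large-subunit ribosomal protein genes in each of the 11 libraries, grouped by passage stage and mouse. Bars of early mouse_283 run from 8.17% to 16.8%, and late bars from 10.7% to 12.9%.

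Both subunits moved together. Large-subunit genes took 1.38 to 1.44 reads for each small-subunit read, with means of 1.41 ± 0.024 (SD, n = 5) early and 1.41 ± 0.013 (SD, n = 6) late. The differences between the group means are smaller than the spread within each group.

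Single genes followed the family. For each gene, log2 CPM was set against its own mean over the 11 libraries; the median of this deviation over the tested genes was −0.60 at passage 2, 0.92 at passage 3 and 0.39 at passage 4 of mouse_283, and between −0.20 and 0.16 in the other 8 libraries. Passage 2 of mouse_283 was the lowest of the 11 libraries for 66 of the 80 genes (82.5%, against 20.4% of all tested genes), and passage 3 of mouse_283 was the highest for 73 (91.2%, against 31.2%). Among the 79 genes with a mean of at least 10 CPM, the correlation of a gene with the library median had a median r of 0.96 over 11 libraries, and 62 had an r of 0.9 or more. These are descriptions, since each gene enters the median and the libraries share their scaling. The fold between a gene's highest and lowest library ran from 1.47 to 6.35 with a median of 3.04.

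**Figure D3:**
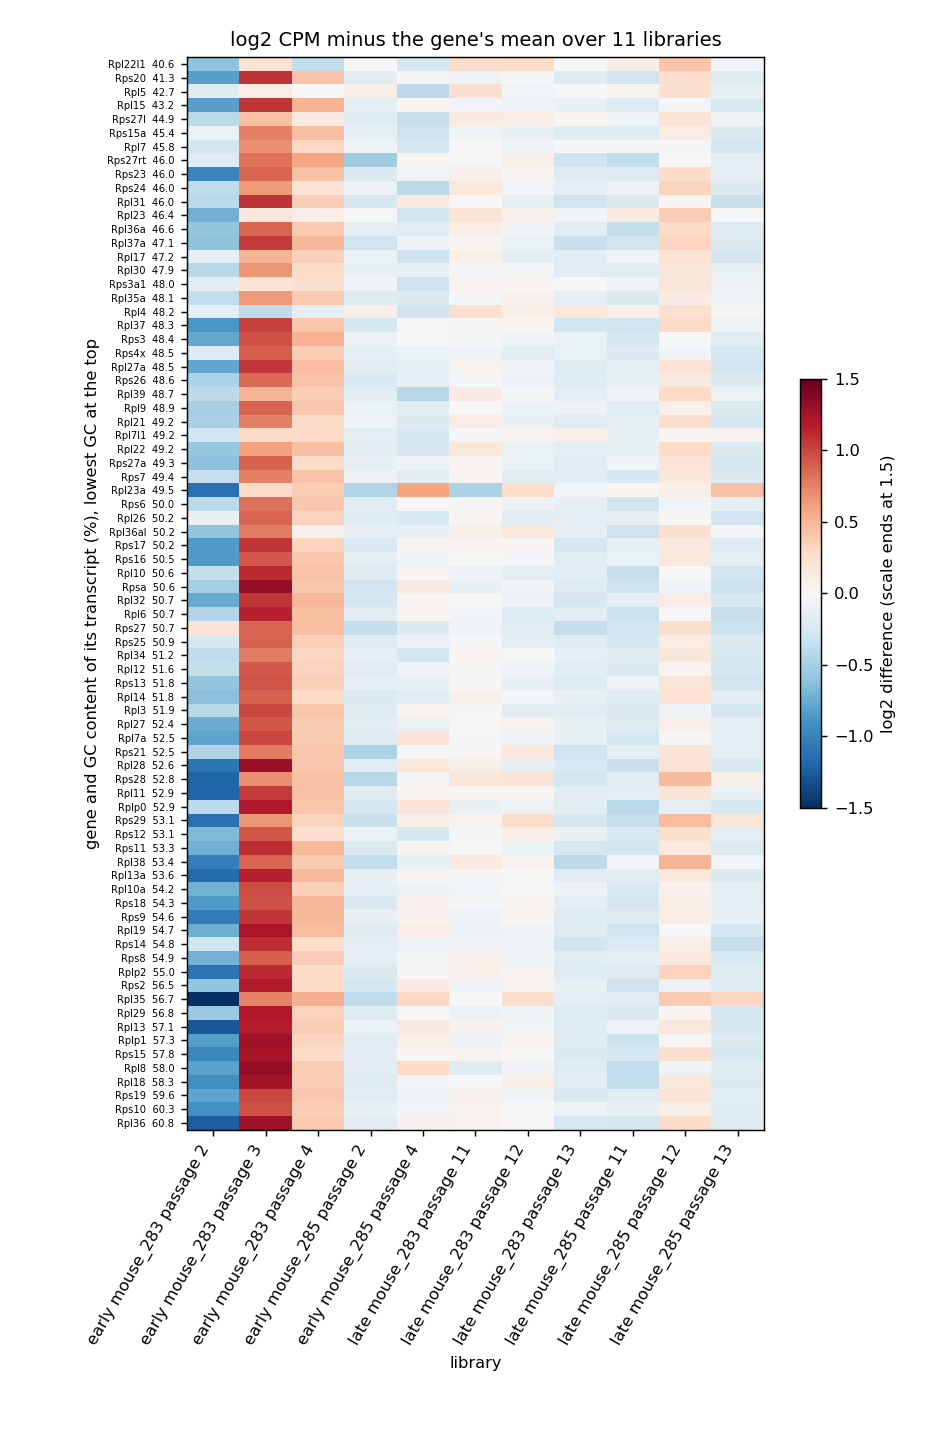
Deviation of log2 CPM from each gene's mean over 11 libraries, 1 row for each tested gene reported here, ordered by the GC content of its transcript, and 1 column for each library. Blue is below and red above the gene's mean; passage 2 of mouse_283 is mostly blue and passages 3 and 4 mostly red, with Rpl4 and Rps27 among the exceptions.

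The profile is shown by the values of single genes. Rpsa, also known as the laminin receptor, had 2569, 9189 and 4845 CPM at passages 2, 3 and 4 of mouse_283 and 3008 and 4012 CPM in early mouse_285. Its 6 late libraries had a lowest value of 2940, a median of 3300.1 and a highest of 3541 CPM. The late values lie inside the early range. Rps6, the small-subunit protein that S6 kinase phosphorylates, had 1229, 2896 and 2145 CPM in early mouse_283, 1453 and 1618 CPM in early mouse_285, and 1340 to 1643 CPM late. Rps19, the gene most often mutated in Diamond-Blackfan anaemia, had 838, 2900 and 1922 CPM in early mouse_283, 1291 and 1380 CPM in early mouse_285, and 1244 to 1672 CPM late. For each of these genes, passage 3 of mouse_283 exceeded every other library and passage 2 was the lowest. Rpl11, which with Rpl5 binds Mdm2 when ribosome assembly fails, had 489, 2313 and 1518 CPM in early mouse_283, 989 and 1147 CPM in early mouse_285, and 993 to 1295 CPM late. Rpl13a had a fold of 4.97 between passages 3 and 2 of mouse_283, Rplp2 one of 4.69 and Rps27a, made as a fusion with ubiquitin, one of 2.84. Rps3, which lines the entry of the messenger channel, and Rps4x had folds of 3.29 and 2.26 between their highest and lowest libraries.

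Rplp0, Rplp1 and Rplp2 form the stalk of the large subunit, which recruits translation factors. Rplp1 had 1546, 6629 and 3449 CPM in early mouse_283, 2445 and 2930 CPM in early mouse_285, and 2191 to 2833 CPM late. Rplp2 had 564, 2641 and 1495 CPM in early mouse_283, 1047 and 1226 CPM in early mouse_285, and 1056 to 1536 CPM late. Both follow the family, with passage 2 of mouse_283 lowest and passage 3 highest. Per length the mean of Rplp1 was 5859 RPKM and that of Rplp2 was 1340 RPKM, although their proteins enter the stalk in equal number; 60.0% of the stretches of Rplp1 occur in other genes.

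Other abundant genes showed the same order of libraries in early mouse_283. Rpl13 (57.1% GC) had 1281, 6964 and 3976 CPM in early mouse_283, 2874 and 3387 CPM in early mouse_285, and 2607 to 3443 CPM late, a fold of 5.44 between passages 3 and 2 of mouse_283. Rps2 (56.5% GC), at the entry of the messenger channel, had 2280.0, 7882 and 4158 CPM in early mouse_283, 2875 and 3757 CPM in early mouse_285, and 2778 to 3542 CPM late. Rpl10, which joins the large subunit last, had 1799.5, 5022 and 3086 CPM in early mouse_283, 2021 and 2376 CPM in early mouse_285, and 1808 to 2285 CPM late. In each gene the late libraries fall within the early range. Rps28 and Rpl38, small proteins with short transcripts, had 188 and 174 CPM at passage 2 of mouse_283, and their late libraries ran from 361 to 601 CPM and from 269 to 505 CPM, with passage 12 of mouse_285 highest in both.

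Late passages were compared with early ones, and no ribosomal protein gene passed the test. With edgeR's quasi-likelihood test and mouse as a block, 0 of 80 genes had an adjusted p under 0.05, against 3.05% of the 14172 genes tested (432 genes). At an unadjusted p under 0.05 the count was also 0 of 80, against 23.6% of all genes. DESeq2 called 0 of the family as well, against 495 genes higher and 848 lower over all genes. Log2 differences, late minus early, were below 0 for 69 of 80 genes with a median of −0.23, beside a median of −0.02 over all genes. Small-subunit genes had a median of −0.24 (29 of 33 below 0) and large-subunit genes one of −0.22 (40 of 47).

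The smallest p belonged to genes on both sides of 0, named here after their values were seen. Rpl22l1 had a log2 difference of 0.36 (SE 0.17, edgeR adjusted p = 0.229) and Rpl4, which lines the exit tunnel of the large subunit, one of 0.30 (SE 0.15, edgeR adjusted p = 0.231). Rplp0 had −0.48 (SE 0.25, edgeR adjusted p = 0.249). The early libraries of Rplp0 had 3849, 11596 and 6780 CPM (mouse_283) and 4225 and 5797 CPM (mouse_285), and its late libraries ran from 3826 to 4788 CPM with a median of 4543. The groups overlap, and the early SD of 3112 CPM is larger than the difference of the means, 6450 against 4443 CPM.

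Within each mouse, late values stood on different sides. In mouse_283, 76 of 80 log2 differences were below 0 with a median of −0.44, beside −0.04 over all genes. In mouse_285, 52 of 80 were above 0 with a median of 0.06. edgeR called 0 genes of the family in mouse_283, against 1.42% of all genes, and 0 in mouse_285, against 0%. The unadjusted edgeR p was under 0.05 for 2 genes in mouse_283 (Rps27 and Rps15a), against 18.8% of all genes. In mouse_285 it was under 0.05 for 0 genes, against 5.38%. DESeq2 called 0 of the family in both, against 272 genes higher and 464 lower over all genes in mouse_283, and 22 and 50 in mouse_285. The difference between the mice, tested as an interaction of stage and mouse, also gave 0 calls in the family, against 0% of all genes. It was above 0 for 78 of 80 genes with a median of 0.47. Only 1 gene, Rps27, had an unadjusted edgeR p under 0.05, against 2.13% of all genes.

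Rank order needs no model. In mouse_283, all late libraries exceeded all early ones for 1 of 80 genes, Rpl4 (8.28% of all genes do so), and lay below them for 1, Rps27 (9.46% of all genes). In mouse_285, with 2 early libraries, late exceeded early for Rpl38, Rpl39, Rpl7l1 and Rps27l (4 of 80, 5% against 18.2% of all genes), and for 0 of 80 did all late libraries lie below (18.3%). Few of the family separate by stage in either mouse, and these shares lie below those of all genes.

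The result in mouse_283 turned on which early library was kept. Without passage 2 of mouse_283, 8 genes of the family were called lower late in both mice together, among them Rpl8, Rplp0, Rpl6, Rpl19, Rpl10 and Rpsa, against 16.2% of all genes called lower, and 67 of 80 within mouse_283, against 25.6%. The same omission gave 6 calls in the interaction, all with the higher late minus early difference in mouse_285 (Rps27, Rps15a, Rpl37a, Rpl38, Rpl32 and Rps26), against 1.94%. Without passages 3 and 4 of mouse_283, the median log2 difference was 0.25 for both mice together, with 0 calls, and 0.57 within mouse_283, where 20 of 80 genes were called higher late against 3.02% of all genes. Those 20 calls set 3 late libraries against passage 2 alone, which is then assumed to vary as the other groups do. Among them were Rpl35 (log2 difference 1.99), Rps28 (1.26), Rpl13 (1.23), Rpl36 (1.20) and Rpl11 (1.18). The sign of the family's change in this mouse therefore differs with the library left out.

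The 3 libraries that carry this variation also differ in how values follow base composition. Over all tested genes, the log2 deviation changed by 1.02 for each 10 percentage points of transcript GC content at passage 3 of mouse_283, by 0.81 at passage 4 and by −0.43 at passage 2, and by −0.34 to 0.20 in the other libraries. The GC content of ribosomal protein transcripts had a median of 50.7% (range 40.6% to 60.8%) beside 50.8% over all tested genes. Among the family the slopes were 0.41, 0.09 and −0.37 at passages 3, 4 and 2. A spline on GC content and length fitted to all genes gave a median of 0.26 for the family at passage 3 and left 0.58; at passage 4 it gave 0.12 and left 0.24, and at passage 2 it gave −0.43 and left −0.17. The family thus stood above the all-gene trend at passages 3 and 4 and below it at passage 2. In the other libraries the spline left −0.17 to 0.12, so what it left at passage 2 was close to the lowest of these. The share of mitochondrial reads was also lowest at passage 3 (1.05%), and its TMM factor was 0.725 against 0.971 to 1.09 elsewhere. Passage 2 of mouse_283 had 11.7% of its reads assigned to no gene, against 3.77% to 6.64% in the other libraries. The part of these values in the family's level was not tested.

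**Figure D4:**
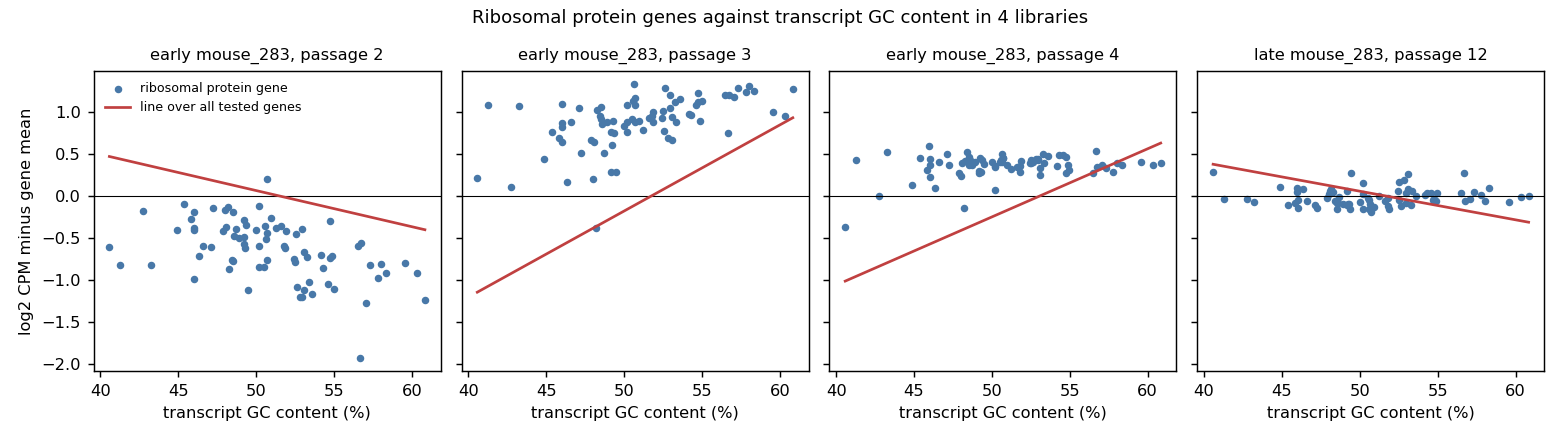
Deviation of log2 CPM from the gene's mean against transcript GC content for the ribosomal protein genes (points) in 4 libraries of mouse_283, with the straight line over all tested genes. At passages 3 and 4 most points lie above the line, at passage 2 below it, and at passage 12, shown for comparison, they lie near 0.

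With GC and length offsets in the fit, the median late minus early log2 difference was −0.07 in both mice together, beside 0.06 over all genes. Within mouse_283 it was −0.19, beside 0.10 over all genes, and both comparisons gave 0 calls in the family. Over the 13709 genes in this fit, 449 were called higher and 461 lower in both mice together, and 323 and 286 within mouse_283. With the offsets and without passages 3 and 4 of mouse_283, 2 genes were called higher late, Rpl35 (log2 difference 0.76, SE 0.19, edgeR adjusted p = 0.0300) and Rps28 (0.57, SE 0.16, edgeR adjusted p = 0.0428), against 3.7% of all genes called higher. Within mouse_283 the same setting called 5 (Rpl35, Rps3, Rpl11, Rpl13a and Rpl15), against 2.32%, again with passage 2 as the only early library.

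A few genes departed from the family's profile. After subtracting the median of each library, the SD of a gene over the 11 libraries had a median of 0.14 (range 0.047 to 0.52, log2), and the 5 largest were Rpl4, Rpl35, Rpl23a, Rpl22l1 and Rpl5. Rpl4 had 2682, 2268 and 2667 CPM at passages 2, 3 and 4 of mouse_283 and 3155 and 2398 CPM in early mouse_285. Its late libraries ran from 3027 to 3512 CPM with a median of 3210.1. Only passage 2 of mouse_285 among the early libraries reached the late range, and Rpl4 was the gene with the lowest correlation with the library median, r = −0.42. Rpl5, a partner of Rpl11 and the 5S RNA, varied by a fold of only 1.55, from 1318 to 2048 CPM, with an r of 0.37. Both have transcripts of GC content below the median of the family (48.2% and 42.7%). So do Rpl23a (49.5%) and Rpl22l1 (40.6%), while Rpl35 lies above it (56.7%). Low GC content did not always go with a departure: Rps20 (41.3%) and Rpl15 (43.2%) had an r of 0.99 and 0.98 with the library median. The part of GC content in these departures was not tested.

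Rpl35, next to the exit of the peptide tunnel, had the widest range. It had 27.7 CPM at passage 2, 176 at passage 3 and 152 at passage 4 of mouse_283, 80.7 and 130 CPM in early mouse_285, and 94.4 to 137 CPM late, with a late median of 116. Passage 2 of mouse_283 alone lies far below the others, 1.31 log2 units under that library's family median. Rpl23a ran from 22.5 CPM in the same library to 73.9 CPM at passage 4 of mouse_285, with late values of 35.2 to 66.2 CPM; most of its sequence is shared with copies. Rps27 departed in the opposite way: at passage 2 of mouse_283 it stood 0.81 log2 units above the family median.

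Rps27, whose zinc-finger protein sits in the small subunit, and its paralog Rps27l, a target of p53, took different courses. Rps27 had 659, 1050 and 781 CPM in early mouse_283, 448 and 496 CPM in early mouse_285, and 447 to 673 CPM late, with a late median of 489. In mouse_283 its late values (546, 511 and 447 CPM) lie below all early ones. Rps27l had 117, 210 and 170 CPM in early mouse_283, 137 and 122 CPM in early mouse_285, and 148 to 179 CPM late, with a late median of 163. Its reads were 17.8%, 20.04% and 21.8% of those on Rps27 in early mouse_283, 30.5% and 24.5% in early mouse_285, and 26.6% to 35.5% late. Passage 2 of mouse_285 lies among the late libraries and the other early ones lie below all late values.

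Of the 4 paralog pairs compared, the log2 ratio of Rps27l to Rps27 differed by 0.44, late minus early (two-sided exact permutation within mouse over 200 arrangements, p = 0.025, adjusted over the 4 pairs 0.05, which does not fall under 0.05). The difference was 0.74 in mouse_283 and 0.14 in mouse_285, where the groups overlap. After subtracting the spline on GC content and length it was 0.07 (exact permutation, adjusted p = 0.83), and with passages 3 and 4 of mouse_283 also left out it was 0.44 (exact permutation, adjusted p = 0.3). The paralog has the lower GC content, 44.9% against 50.7%.

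Rpl22l1, a paralog of Rpl22 that can stand in for it in the ribosome, followed a like course. Rpl22l1 had 95.2, 168 and 112 CPM in early mouse_283, 145 and 121 CPM in early mouse_285, and 141 to 194 CPM late, with a late median of 165. Rpl22 had 378, 854 and 767 CPM in early mouse_283, 501 and 474 CPM in early mouse_285, and 488 to 692 CPM late, with a late median of 522. The paralog's reads were 25.2%, 19.7% and 14.6% of Rpl22 in early mouse_283, 29.0% and 25.6% in early mouse_285, and 27.9% to 33.5% late. The log2 ratio differed by 0.36 (exact permutation p = 0.025, adjusted 0.05), by 0.63 in mouse_283 and 0.09 in mouse_285. Rpl22l1 has the lowest GC content of the family, 40.6% against 49.2% for Rpl22, and after the spline the difference was −0.15 (exact permutation, adjusted p = 0.34), so that its sign turned.

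The remaining pairs differed less. Rpl36al had 34.9% to 50.9% of the reads of Rpl36a, with a log2 difference of 0.13, and Rpl7l1 had 4.60% to 7.42% of those of Rpl7, with one of 0.16 (exact permutation, adjusted p = 0.145 for both). After the spline the Rpl7l1 difference was 0.40 (exact permutation, adjusted p = 0.04) and with passages 3 and 4 of mouse_283 also left out it was 0.36 (exact permutation, adjusted p = 0.2). The smallest unadjusted p is 0.005 over all 11 libraries and 0.025 over the 40 arrangements left without passages 3 and 4 of mouse_283. Beside these values, shared sequence limits the reads: 85.5% of the stretches of Rpl36a and 53.3% of those of Rpl7 occur in other genes.

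**Figure D5:**
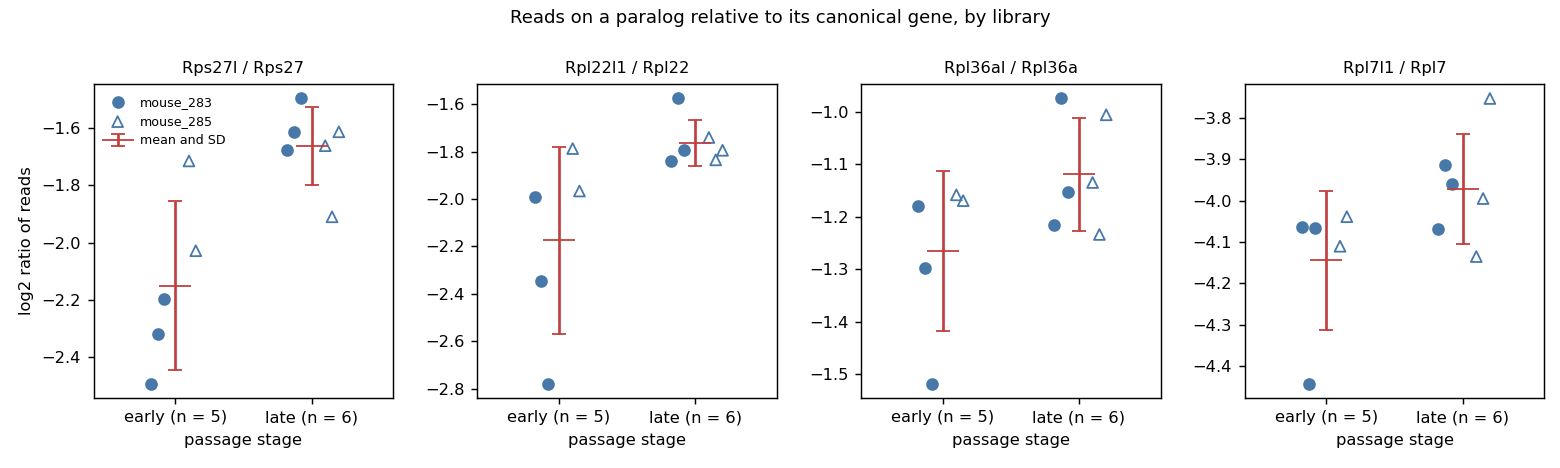
Log2 ratio of reads on a paralog to reads on its canonical gene in each library, early (n = 5) and late (n = 6), with filled circles for mouse_283, open triangles for mouse_285, and the mean and SD in red. For Rps27l and Rpl22l1 the early libraries of mouse_283 lie lowest, and the libraries of mouse_285 overlap between the stages.

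Between the animals no gene of the family differed past the threshold. Log2 differences of mouse_285 against mouse_283 were below 0 for 75 of 80 genes with a median of −0.22, beside 0.00 over all genes, and edgeR called 0 of 80, against 0.0776% of all genes. The smallest edgeR adjusted p was 0.891, and 0 genes had an unadjusted p under 0.05, against 5.15% of all genes. DESeq2 called 0, against 35 genes higher and 91 lower over all genes. The direction turned without passages 3 and 4 of mouse_283, where 73 of 80 genes stood above 0 with a median of 0.14 and 0 calls. With GC and length offsets the median was −0.09, beside 0.06 over all genes.

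Other genes of ribosome production were read beside the family in the same comparison. Of 45 tested genes of ribosome assembly, edgeR called 0 late against early, and 29 had a log2 difference above 0, with a median of 0.29. Npm1 and Ncl, abundant nucleolar proteins, had 332 ± 198 and 281 ± 148 CPM early (SD, n = 5) and 700 ± 131 and 546 ± 157 CPM late (SD, n = 6), with log2 differences of 1.08 (edgeR adjusted p = 0.115) and 0.95 (edgeR adjusted p = 0.141). With GC and length offsets, 7 of the 45 were called higher late (Gar1, Nolc1, Nop56, Npm1, Rrs1, Wdr43 and Xpo1), against 3.28% of all genes called higher, and 38 stood above 0. Without passages 3 and 4 of mouse_283, 1 of the 45 was called, Rrs1, against 1.37% of all genes called higher. With the offsets and that omission together, 8 were called higher late (the 7 above and Gnl3), against 3.7% of all genes, and 40 stood above 0. For this list the median deviation by library was −0.20 and −0.52 at passages 3 and 4 of mouse_283, where that of the ribosomal protein genes was 0.92 and 0.39.

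Fau and Rack1, ribosomal proteins outside the symbol rule, were not called. Fau had 1868 ± 1055 CPM early and 1365 ± 162 CPM late (SD, n = 5 and 6; log2 difference −0.41, edgeR adjusted p = 0.390), and Rack1 had 4185 ± 1975 and 2696 ± 164 CPM (SD, n = 5 and 6; log2 difference −0.58, edgeR adjusted p = 0.184). Without passages 3 and 4 of mouse_283 the log2 differences were 0.20 for Fau and −0.14 for Rack1, and Fau was called higher late within mouse_283. With GC and length offsets they were 0.05 and −0.42. Among 17 genes outside the family with oligopyrimidine messages, edgeR called 0. This list includes Rack1, Npm1 and Nap1l1, which are also counted in other lists here. The translation factor Eef2 had a log2 difference of −0.68 (edgeR adjusted p = 0.130) and the poly(A)-binding Pabpc1 one of 0.67 (edgeR adjusted p = 0.157), and the median was −0.13. When passages 3 and 4 of mouse_283 were left out, 13 of the 17 stood above 0, Nap1l1 was called higher and the median became 0.12. With GC and length offsets the median of this list was 0.03, beside 0.06 over all genes, with Nap1l1 and Npm1 called higher. The 76 tested mitochondrial ribosomal proteins, which serve a separate ribosome, gave 0 calls with 65 below 0 and a median of −0.17. Without passages 3 and 4 of mouse_283, 63 of the 76 stood above 0 with a median of 0.15 and 0 calls, and 16 were called higher late within mouse_283, against 3.02% of all genes. With GC and length offsets the median was −0.02, beside 0.06 over all genes. Their library medians followed the same order in mouse_283, −0.44, 0.80 and 0.20 at passages 2, 3 and 4.

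Among 17 regulators of ribosomal protein synthesis, 1 was called, against 3.05% of all genes. Mycn, a Myc family transcription factor, fell by 2.64 on the log2 scale (SE 0.33, edgeR adjusted p = 0.00208), from 5.15 ± 2.35 CPM early to 1.03 ± 0.696 CPM late (SD, n = 5 and 6). In the same fit within each mouse it was called in mouse_283 and not in mouse_285, where 0 of all genes were called. Without passages 3 and 4 of mouse_283 it was called lower late within mouse_285 too, with and without GC and length offsets. Myc itself had 67.6 ± 19.6 and 97.96 ± 8.97 CPM (SD, n = 5 and 6), with a log2 difference of 0.53 (edgeR adjusted p = 0.146). With GC and length offsets Myc was called higher late (log2 difference 0.91, SE 0.21, edgeR adjusted p = 0.0236), and Mycn stayed lower (−2.37, edgeR adjusted p = 0.00131). Mtor had 61.1 ± 19.5 and 56.0 ± 11.4 CPM, and Larp1, which binds the oligopyrimidine tract, 187 ± 58.6 and 248 ± 11.0 CPM (SD, n = 5 and 6). None of the 6 genes of the nucleolar stress list, which includes Mdm2, Cdkn1a and Rps27l, was called with all libraries. Their median log2 difference was 0.20, and with GC and length offsets it was 0.06, beside 0.06 over all genes. Without passages 3 and 4 of mouse_283, Cdkn1a was called lower late within mouse_285. Of the 8 tested chaperones and importers of ribosomal proteins, 0 were called and Nap1l1 came nearest, from 70.2 ± 31.6 to 146 ± 16.01 CPM (SD, n = 5 and 6; log2 difference 1.05, edgeR adjusted p = 0.0511). Nap1l1 was called higher late without passages 3 and 4 of mouse_283 (log2 difference 0.70, edgeR adjusted p = 0.0303), with GC and length offsets (0.78, edgeR adjusted p = 0.0149) and with both (0.59, edgeR adjusted p = 0.0111).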

How the data were processed

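Read counts per gene, deposited by the authors as 1 table a library, were used as deposited; the submitters' processing notes list Trimmomatic, STAR and the mm9 build, and the annotation and counting settings are not given in the sources used here. The unstranded counts were used. Passage numbers follow the sample titles, and the tables' own names give each passage 1 higher. Identifiers were matched to symbols, transcript length and GC content in a later annotation (GRCm38), so lengths are approximate; 32620 of 37310 matched. Genes were filtered by edgeR 4.0.16's filterByExpr on stage and mouse, scaled by TMM and tested with its quasi-likelihood test with mouse as a block and Benjamini-Hochberg adjustment over 14172 genes at 0.05; early and late libraries share their mice, from the labels. Within-mouse and interaction contrasts came from 1 fit over the 4 groups of stage and mouse. DESeq2 1.42.0, other scalings and filters, GC and length offsets and omitted libraries were alternatives. Paralog ratios added 0.5 to each count and were tested by exact permutation of stage within mouse. Genes were named by role, level, smallest p and spread. The scripts were tested on simulated data. There the late against early test recovered 31.8% of genes changed by 1 log2 unit and 79.5% of those changed by 2. A gene without a call is therefore not shown to be unchanged. The genes and lists were chosen with earlier results of these data known. Single values of a few genes are not reported here.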

Additional observations from a re-analysis of the deposited data

Results flagged for a closer look

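Early and late values of 30 named genes, 4 paralog ratios and 3 library measures (the family's share of reads, the pseudogenes' share and the ratio of large to small subunit reads) made 74 groups, of which 2 held a library far from the others of its group, where chance alone gives about 1 in 20. Among early libraries the log2 ratio of Rpl7l1 to Rpl7 was −4.44 at passage 3 of mouse_283, while the other 4 lay between −4.11 and −4.04. Among late libraries Rpl7 had 1780.2 CPM at passage 13 of mouse_285, while the other 5 lay between 2002 and 2112 CPM.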

How the results depend on the processing

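DESeq2, other scalings and filters, and the fit with no replicate block (no mouse term) left 0 ribosomal protein genes called. Scaling to library size only moved the family's median log2 difference, late minus early, to −0.05, beside 0.11 over all genes, with 32 of 80 genes above 0. Within mouse_283 that scaling gave −0.18, beside 0.13 over all genes. Without passages 3 and 4 of mouse_283 the median log2 difference, late minus early, was 0.25 in both mice, 0.57 within mouse_283 (20 genes called) and −0.51 in the interaction, and the share of gene reads was 1.94 percentage points higher late, against 0.555 points lower with all libraries (mean of the within-mouse differences). Adding GC and length offsets to that omission gave 2 genes called in both mice. Medians were then 0.17 within mouse_283, beside 0.06 over all genes, and −0.11 in the interaction, beside −0.05. With the offsets alone Rpl22l1 turned to −0.16 (SE 0.19, edgeR adjusted p = 0.615), and the Rpl22l1 ratio was −0.15 after the spline and −0.24 after the spline without passages 3 and 4 of mouse_283, while the Rpl7l1 ratio was 0.40 after the spline. The spline on ratios was added after seeing the data. With no replicate block the Rps27l ratio differed by 0.49 and the Rpl22l1 ratio by 0.41 (exact permutation, adjusted p = 0.0216 for both). Leaving out 1 library at a time gave 0 to 8 genes called in both mice, 0 to 67 within mouse_283 and 0 to 6 in the interaction, each of the highest counts without passage 2 of mouse_283. The same omissions gave medians of −0.37 to 0.04 in both mice (above 0 without passage 3 of mouse_283), −0.75 to −0.0060 within mouse_283 and 0.058 to 0.79 in the interaction. They gave Rps27l ratio differences of 0.364 to 0.521 and Rpl22l1 ones of 0.259 to 0.456, both under the threshold without passage 2 of mouse_285 (exact permutation, adjusted p = 0.025). The cause was not tested. Over all genes, 432 calls late against early became 1343 with DESeq2, 1819 with no low-count filter, 211 at a mean of at least 5 CPM, 910 with the offsets, 697 without passages 3 and 4 of mouse_283, 1288 with both, and 173 to 4872 when 1 library was left out, the most without passage 2 of mouse_283. Depth limits only Rps27rt (4.93 to 12.7 CPM) among the tested genes; shared sequence, 2 animals and 3 unusual early libraries limit the rest.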
